A study of Mus musculus with 14 samples.

Results

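Tcf7l2, Lef1, Ntng1 and Ramp3 are 4 genes known as markers of the thalamus, and they are described here across 14 libraries of the mouse hypothalamus. They were taken by symbol from a table of 14531 entries, 1 entry for each gene, and all 4 passed the filter on low values that left 12478 genes for testing. They were selected on their measured levels in these libraries: their RNA was higher after precipitation with an antibody against phosphorylated ribosomal protein S6 than in the starting lysate. That difference is therefore given as a description, without a test.

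The mice were male C57BL/6N animals of 10 weeks, which received either control food (NCD) or food rich in fat (HFD) during 3 days before their hypothalami were taken. All groups share sex, strain, age and tissue, and no allele or drug is named. Each library came from 1 pool of 8 hypothalami. The p-values measure the spread between libraries, which holds that between pools and that of laboratory steps such as precipitation and amplification. Input libraries hold RNA of the whole lysate (3 on control diet, 4 on high-fat diet). IP libraries hold RNA precipitated with ribosomes whose S6 subunit was phosphorylated, a mark of activated cells (3 on control diet, 4 on high-fat diet). A precipitation with another, non-specific antibody was not analysed here. The columns carry an index from 0 to 3 instead of the labels' replicate numbers, and single libraries are named by diet, fraction and index.

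Tcf7l2 and Lef1 encode transcription factors of the TCF/LEF family, which bind DNA and switch target genes on when Wnt signals let beta-catenin accumulate and bind them. In the mouse brain Tcf7l2 is known for its strong expression in thalamic neurons and also marks newly formed oligodendrocytes, and Lef1 is known from thalamic neurons and from brain endothelium. Ntng1 encodes netrin-G1, a membrane-anchored protein of axons, including those from thalamus to cortex, whose partner on the facing cell is NGL-1, encoded by Lrrc4c. Ramp3 encodes a receptor activity-modifying protein, which pairs with the calcitonin receptor and the calcitonin receptor-like receptor and shapes which peptides they bind.

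The genes lie on 3 chromosomes of build GRCm38. Tcf7l2 spans chromosome 19 from 55741820 to 55933654 on the plus strand, and Ramp3 spans chromosome 11 from 6658521 to 6677475 on the plus strand. Lef1 (131110471 to 131224356, plus strand) and Ntng1 (109780040 to 110144011, minus strand) both lie on chromosome 3. Exons of Lef1 overlap the antisense gene Gm43352, and exons of Ramp3 overlap the pseudogene Gm11978 on the other strand. The library kit does not mark strand, so reads from these partners cannot be told apart.

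Because Tcf7l2 and Lef1 encode factors that bind the letters CAAAG, the 250 bases before each transcript start that RefSeq lists were searched for them. Shown 5′ to 3′ on the gene's strand (RefSeq, GRCm38.p6) are the first start of Tcf7l2 at chr19:55741560-55741809 (+), the third start of Lef1 at chr3:131112541-131112790 (+) and the start of Ramp3 at chr11:6658283-6658532 (+), with CAAAG in capitals.
Tcf7l2: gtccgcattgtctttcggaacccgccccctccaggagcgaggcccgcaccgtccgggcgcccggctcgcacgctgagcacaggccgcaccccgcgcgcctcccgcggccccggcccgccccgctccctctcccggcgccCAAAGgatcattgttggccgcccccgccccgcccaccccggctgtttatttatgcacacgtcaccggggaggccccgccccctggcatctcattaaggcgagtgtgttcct
Lef1: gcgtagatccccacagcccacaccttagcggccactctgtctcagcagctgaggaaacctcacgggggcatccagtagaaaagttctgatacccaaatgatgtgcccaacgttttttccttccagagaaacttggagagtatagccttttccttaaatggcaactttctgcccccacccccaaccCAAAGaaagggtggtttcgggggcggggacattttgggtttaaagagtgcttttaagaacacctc
Ramp3: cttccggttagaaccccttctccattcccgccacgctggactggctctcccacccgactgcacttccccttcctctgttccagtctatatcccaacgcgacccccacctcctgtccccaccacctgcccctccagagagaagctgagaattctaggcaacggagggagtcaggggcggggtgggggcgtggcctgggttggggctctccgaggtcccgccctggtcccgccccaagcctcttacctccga
The Tcf7l2 window shown held the letters once, 111 bases before its start, the Lef1 window shown once, 65 bases before its start, and the Ramp3 window none on either strand. The windows of the second Tcf7l2 start and the fourth Lef1 start, which like those shown of these genes lie outside annotated exons, are left out only to keep 1 window for each gene. The former held the letters once, as CTTTG, 14 bases before its start, and the latter 3 times, at 179, 145 and 119 bases before its start. CAAAG or its reverse CTTTG was present in 48.6% of all 32851 listed promoters, so its presence sets these windows little apart. The longer site ATCAAAG (reverse CTTTGAT), present in 3.21% of all promoters, occurred in 0 of the 8 windows listed for the 4 genes. The windows of the first and second Lef1 starts and of Ntng1 lie inside annotated exons and are not shown. The first Tcf7l2 window had 72.8% G and C, against 40.8% in the second and a median of 52.4%. It held 6 copies of GGGCGG or its reverse CCGCCC, the second held 0, Ramp3 held 3, and this hexamer was present in 32.7% of all promoters.

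IP libraries varied more than input libraries. The share of mitochondrially encoded genes in all FPKM (read fragments for each kilobase of transcript, adjusted for library size) was 23.5% to 39.1% in input against 2.66% to 15.6% in IP. Entries listed at 0 made up 0.282% to 0.957% of an input library and 0.771% to 10.9% of an IP library. Both shares were highest, within IP, in the index 0 library of each diet. The read depth behind the values is unknown, so no counting error can be given.

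All 4 genes had higher FPKM in each of the 7 IP libraries than in any of the 7 input libraries, as had 13.4% of the 12478 genes tested. The mean IP level was 7.37 times the mean input level for Ramp3, 7.15 times for Lef1, 5.13 times for Tcf7l2 and 3.52 times for Ntng1. Both diets showed this, and the lowest IP value exceeded the highest input value by 3.59 times for Ramp3, 3.20 times for Tcf7l2, 3.15 times for Lef1 and 2.57 times for Ntng1. Both fractions come from the same lysates, so the difference is one between precipitated and total RNA. Which cells gave the precipitated RNA, and how much each gave, cannot be told from these bulk samples. How the deposited FPKM were scaled between libraries is not stated.

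**Figure D1:**
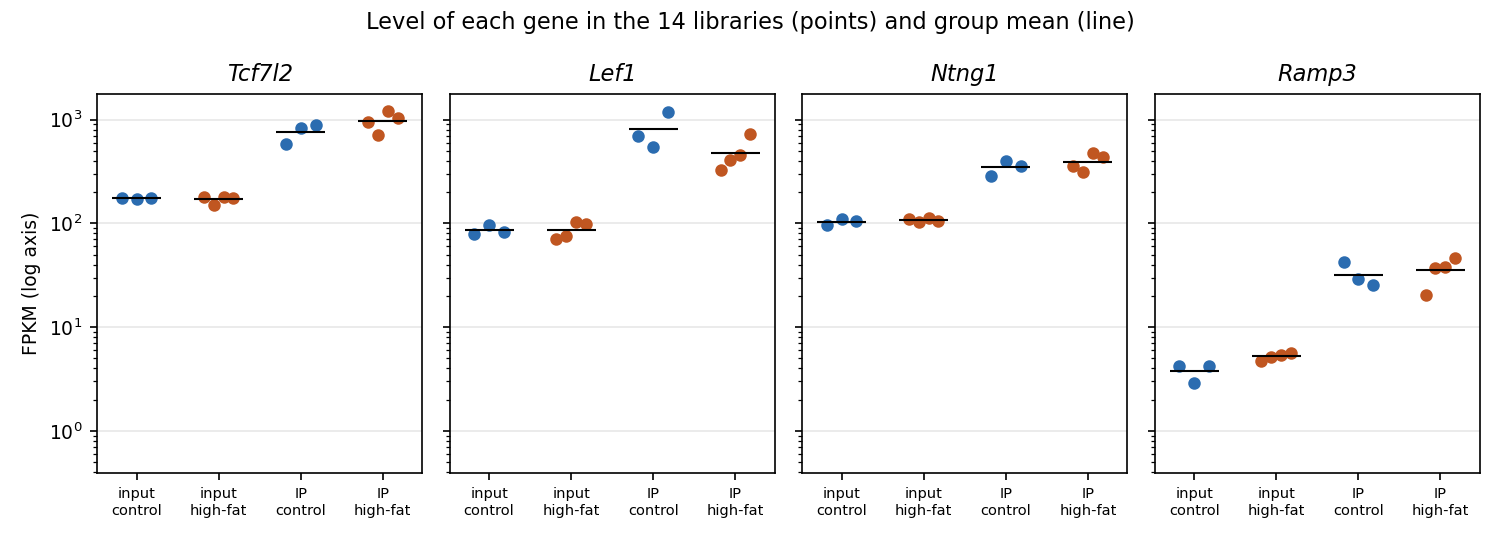
FPKM (log axis) of Tcf7l2, Lef1, Ntng1 and Ramp3 in the 14 libraries, with a point for each library and a line for the group mean; blue is control diet and orange high-fat diet. In each panel all 7 IP points lie above all 7 input points, and Ramp3 lies far below the other genes in both fractions.

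Among the transcription factors, Tcf7l2 was the most abundant of the 4 genes in input. Its input FPKM was 177, 172 and 174 on control diet (174 ± 2.34, SD, n = 3) and 181, 149.9, 179.6 and 177 on high-fat diet (172 ± 14.7, n = 4). In IP its FPKM was 577, 826 and 889.7 on control diet (764 ± 165, n = 3) and 948, 707, 1217 and 1038 on high-fat diet (978 ± 212, n = 4). The input libraries were nearly equal except for index 1 on high-fat diet, the lowest of them, while IP libraries ran from 577 to 1217. By mean FPKM over 12478 genes it ranked 120 from the top in input and 42 in IP.

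Lef1 was the more variable of the pair. Its input FPKM was 78.3, 97.4 and 82.7 on control diet (86.1 ± 10.0, n = 3) and 70.4, 76.3, 104 and 98.3 on high-fat diet (87.2 ± 16.4, n = 4). In IP its FPKM was 694, 546 and 1182 on control diet (807 ± 333, n = 3) and 327, 409.9, 453 and 729.6 on high-fat diet (479.9 ± 174, n = 4). The control-diet IP library of index 2 was the highest by far, and only 1 of the 4 high-fat IP libraries, index 3, was above the lowest control-diet value. Lef1 ranked 361 of 12478 in input and 68 in IP.

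Ntng1, the axonal adhesion gene, had the lowest coefficient of variation of the 4 genes within each IP group (15.7% on control diet and 19.3% on high-fat diet) and in high-fat input (3.55%), while Tcf7l2 had the lowest in control-diet input (1.34%). Its input FPKM was 95.4, 111 and 105 on control diet (104 ± 8.01, n = 3) and 109.6, 103, 112 and 106 on high-fat diet (108 ± 3.82, n = 4). In IP its FPKM was 288, 396 and 354 on control diet (346 ± 54.4, n = 3) and 356, 309.7, 480.2 and 432 on high-fat diet (394 ± 76.2, n = 4). Index 2 and index 3 on high-fat diet were the highest IP libraries, as they were for Tcf7l2, and index 0 on control diet was the lowest for both genes. Ntng1 ranked 257 in input and 120 in IP.

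Ramp3, the receptor partner, was the least abundant of the 4 genes. Its input FPKM was 4.26, 2.90 and 4.22 on control diet (3.79 ± 0.778, n = 3) and 4.67, 5.17, 5.41 and 5.65 on high-fat diet (5.23 ± 0.417, n = 4). In IP its FPKM was 42.0, 29.2 and 25.2 on control diet (32.1 ± 8.75, n = 3) and 20.3, 37.1, 37.6 and 46.6 on high-fat diet (35.4 ± 10.96, n = 4). The 2 diets did not overlap in input, as for 6.80% of all genes tested in either direction. They overlapped fully in IP, where index 0 on high-fat diet was the lowest and index 3 on that diet the highest. Ramp3 ranked 7501 in input and 2093 in IP.

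The order of the genes differed between fractions. In all 7 input libraries it was Tcf7l2, Ntng1, Lef1 and Ramp3 from highest to lowest FPKM. In IP Lef1 stood above Ntng1 in all 3 control-diet libraries and in 2 of the 4 high-fat libraries, and it stood above Tcf7l2 in 2 control-diet libraries. The quotient of Tcf7l2 over Lef1 FPKM was 1.73 to 2.57 over the input libraries, 0.753 to 1.51 over IP libraries of control diet and 1.42 to 2.90 over those of high-fat diet. The quotient of Tcf7l2 over Ntng1 was narrower, 1.45 to 1.85 in input and 2.004 to 2.66 in IP. In IP, Tcf7l2 and Lef1 overlap in their ranges, so their order there is not separated from the spread between libraries. Ramp3, in contrast, lay below the other 3 genes in every library.

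The authors' deposited table gives an IP to input ratio for each of the 7 pairs of columns with the same diet and index. For Tcf7l2 the ratios in the authors' deposited table were 3.27, 4.80 and 5.12 on control diet and 5.25, 4.72, 6.78 and 5.86 on high-fat diet. For Lef1 they were 8.85, 5.61 and 14.3 on control diet and 4.65, 5.37, 4.36 and 7.42 on high-fat diet in the authors' deposited table. Lef1 thus had the widest range, with its highest ratio 3.28 times its lowest, against 2.07 times for Tcf7l2. For Ntng1 the ratios in the authors' deposited table were 3.02, 3.56 and 3.38 on control diet and 3.25, 3.00, 4.29 and 4.08 on high-fat diet, the narrowest range (1.43 times). For Ramp3 the authors' deposited table lists 9.85, 10.1 and 5.97 on control diet and 4.34, 7.18, 6.94 and 8.24 on high-fat diet. The ratios of the diets overlapped for each of the 4 genes. The unadjusted p-values in the authors' deposited table for the diet difference in ratio were 0.155 for Tcf7l2, 0.240 for Lef1, 0.391 for Ntng1 and 0.290 for Ramp3.

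**Figure D2:**
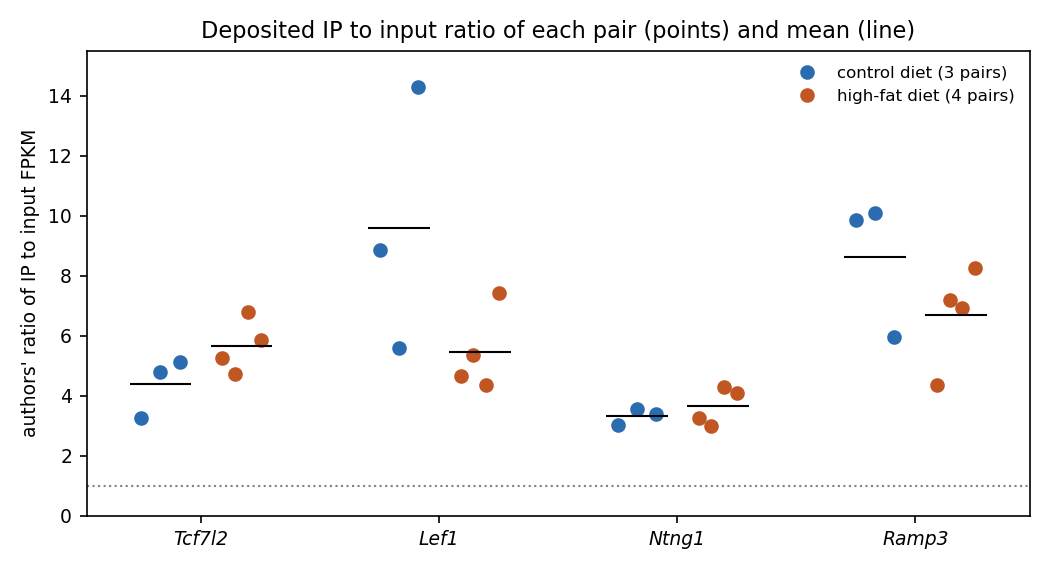
Deposited ratio of IP to input FPKM (linear axis from 0) for each pair of columns, with a line for the mean of each diet (3 pairs on control diet in blue, 4 on high-fat diet in orange) and a dotted line at equal levels. All ratios exceed 1, and the Lef1 ratio of 14.3 on control diet is the highest of the 28 drawn.

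On the log2(FPKM + 1) scale the fitted change from input to IP was 2.77 ± 0.20 (SE) for Lef1, 2.63 ± 0.20 for Ramp3, 2.29 ± 0.13 for Tcf7l2 and 1.78 ± 0.12 for Ntng1, while the median over all 12478 genes was 0.00. Of all genes tested, 197 had a larger change than Lef1, 246 a larger one than Ramp3, 388 than Tcf7l2 and 751 than Ntng1, so none of the 4 was at the top of the table. Among genes whose longest transcript was of similar length, 3 of 2393 exceeded Lef1, 14 of 2393 exceeded Tcf7l2, 32 of 2903 exceeded Ntng1 and 62 of 1875 exceeded Ramp3. The 4 genes were selected on this same change, so high ranks follow from the choice and are only a description. After quantile normalization, which gives every library the same distribution, the changes were 1.79 for Lef1, 1.13 for Tcf7l2, 0.70 for Ntng1 and 2.40 for Ramp3.

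The relatives of the 4 genes were counted from lists. In the comparison of IP with input, 43.9% of the 12478 genes passed the threshold (limma, adjusted p under 0.05), 23.4% higher and 20.5% lower in IP, which is the background for the counts that follow. Of the 6 other measured members of the TCF/LEF and Groucho corepressor list, 1 was higher in IP and 5 did not pass, with a median log2 change of 0.10. The one that passed was Aes, a short Groucho-family protein, which rose on control diet from 68.8 ± 8.32 to 209 ± 34.6 FPKM (SD, n = 3) and on high-fat diet from 78.5 ± 7.05 to 198 ± 58.1 FPKM (SD, n = 4) (log2 change 1.43 ± 0.15, adjusted p = 1.5e-06 by limma). The third TCF/LEF factor in the table, Tcf7l1, stood at 0.61 ± 0.47 (adjusted p = 0.32 by limma), with IP values from 0.137 to 17.6 FPKM. The corepressors Tle1, Tle2, Tle3 and Tle4 did not pass, with log2 changes of −0.72 ± 0.32, −0.36 ± 0.50, −0.03 ± 0.28 and 0.23 ± 0.21. Tle1 did pass when both IP libraries of index 0 were left out (−0.91).

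Other genes of the Wnt and beta-catenin pathway were counted in the same way. Of 12 genes of Wnt ligands and their secretion, 3 were higher and 9 did not pass. The ligand gene Wnt5a rose by 0.91 ± 0.22. Porcn, which encodes the enzyme that attaches a lipid to Wnt proteins, was called over both diets (0.93 ± 0.25), but its FPKM on control diet was 5.70 ± 0.314 in input against 25.9 ± 15.0 in IP (SD, n = 3) and on high-fat diet 8.24 ± 1.06 against 8.71 ± 4.06 (SD, n = 4). The difference of its diet effects did not pass (−1.87 ± 0.50, adjusted p = 0.49 by limma). Of 10 Wnt receptor genes, 2 were lower, Lgr6 (−0.90 ± 0.25) and Fzd1 (−0.80 ± 0.26), and 8 did not pass. Lgr6 lost its call with quantile normalization (−0.36, adjusted p = 0.21 by limma), and Fzd1 lost its call in 2 of 14 fits that left out a library. Of 16 genes of beta-catenin and its destruction complex, 2 were higher, 2 lower and 12 did not pass, and the calls of Gsk3a and Amer1 among these were lost with quantile normalization. Ctnnb1, which encodes beta-catenin itself, stood at −0.06 ± 0.25, and at −1.02 and past the threshold with quantile normalization. The scaffold gene Apc fell (−0.74 ± 0.11). The kinase gene Gsk3b rose by 0.60 ± 0.10 as deposited and was lower, at −0.51, after quantile normalization.

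Further down the pathway, 2 of 7 coactivator and partner genes were higher and 1 was lower. Of these calls, Pygo2 (higher) was lost in 12 and Bcl9l (lower) in 10 of 14 fits that left out a library. The call kept in all 14 was Ctnnbip1, which encodes an inhibitor that keeps beta-catenin off TCF factors (1.83 ± 0.16, adjusted p = 3.3e-07 by limma). Of 7 feedback targets of Wnt signalling, 1 was lower, the ubiquitin ligase gene Znrf3 (−1.76 ± 0.43), and 6 did not pass. Axin2, the most used readout of that signalling, stood at 0.46 ± 0.40 (adjusted p = 0.38 by limma). Of 4 tested genes listed as beta-catenin targets of thalamic neurons, the potassium channel gene Kcna6 was higher (1.15 ± 0.28) and 3 did not pass. Among those 3, the calcium channel gene Cacna1g (−0.40 ± 0.41) was lower (−0.73, adjusted p = 0.044 by limma) without the high-fat IP library of index 0.

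Of the 4 other genes of the netrin-G and NGL list, 3 passed, all higher, with a median log2 change of 1.11. Lrrc4c, which encodes the partner of netrin-G1, rose on control diet from 39.2 ± 2.51 to 77.5 ± 21.3 FPKM (SD, n = 3) and on high-fat diet from 38.9 ± 3.44 to 87.5 ± 19.7 FPKM (SD, n = 4) (1.03 ± 0.15, adjusted p = 5.5e-05 by limma). It did not pass after quantile normalization (0.33, adjusted p = 0.12 by limma). Lrrc4, the partner gene of netrin-G2, rose by 1.20 ± 0.15, and Lrrc4b by 2.21 ± 0.27. The paralogue Ntng2 was low and scattered in IP, at 1.32 to 22.4 FPKM, and did not pass (0.93 ± 0.47, adjusted p = 0.12 by limma), but did with quantile normalization (adjusted p = 0.040 by limma).

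Of the 7 other measured genes of the receptor family of Ramp3, 3 were higher in IP and 4 did not pass, with a median log2 change of 0.44. Ramp2, its paralogue, rose on control diet from 11.9 ± 2.84 to 49.3 ± 21.5 FPKM (SD, n = 3) and on high-fat diet from 13.7 ± 1.99 to 39.3 ± 16.4 FPKM (SD, n = 4) (1.64 ± 0.23, adjusted p = 3.4e-05 by limma). Ramp1 stood at 0.44 ± 0.32 (adjusted p = 0.28 by limma) and passed with array weights (0.77, adjusted p = 0.028 by limma). The receptors that RAMP proteins pair with were near 2 FPKM in input and did not pass, with Calcrl at −0.29 ± 0.32 and Calcr at −0.18 ± 0.45. Without both IP libraries of index 0, Calcr was lower (−0.89, adjusted p = 0.0029 by limma). Of the remaining genes, the peptide gene Adm (0.99 ± 0.30) and Crcp (0.89 ± 0.28) rose, whereas Calca, which encodes calcitonin and its related peptide, stood at −0.05 ± 0.53. Adm lost its call with a pseudocount of 0.1 (adjusted p = 0.20 by limma) and Crcp with quantile normalization (adjusted p = 0.057 by limma).

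**Figure D3:**
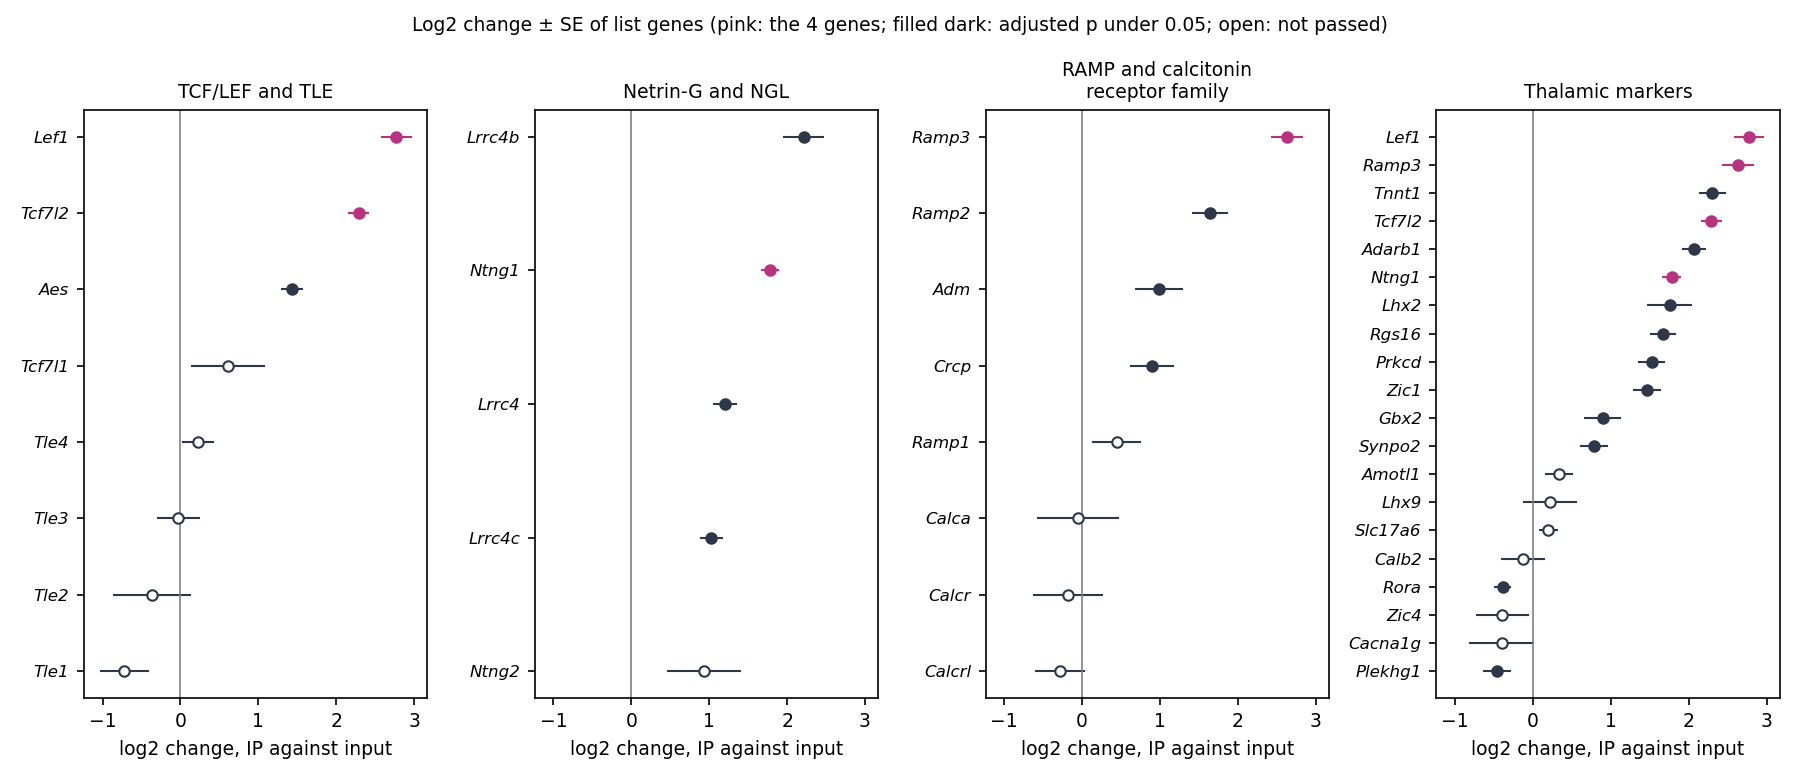
Log2 change ± SE from input to IP for the genes of the TCF/LEF, netrin-G, RAMP and thalamic lists; pink points are the 4 genes, filled dark points passed adjusted p under 0.05 (limma) and open points did not. Lef1 at 2.77 and Ramp3 at 2.63 lead the thalamic list, which runs down to Plekhg1 at −0.47.

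The label of a thalamic group was set beside 16 further thalamic markers. That list was chosen with earlier results of these data known, so it is no independent check. All 16 were measured, of which 8 were higher in IP, 2 lower and 6 past no threshold. Their median log2 change was 0.56. Adarb1, an RNA-editing enzyme gene, rose by 2.07 ± 0.15, Tnnt1, a troponin gene, by 2.30 ± 0.18, Rgs16, a regulator of G-protein signalling, by 1.67 ± 0.17 and Prkcd, a protein kinase C gene, by 1.52 ± 0.17. Rora, a nuclear receptor gene abundant in thalamic neurons, was lower (−0.39 ± 0.11), as was Plekhg1 (−0.47 ± 0.18), whose call was lost in 11 of 14 fits that left out a library. Slc17a6, the vesicular glutamate transporter of thalamic and many hypothalamic neurons, stood at 0.20 ± 0.12 and did not pass. Summed over the 16 markers, FPKM was 511 to 631 in input and 948 to 1442 in IP, without overlap. Much of that rise lay in Adarb1, Prkcd and Zic1. On control diet their mean FPKM was 65.5, 83.4 and 57.3 in input and 301, 224 and 179 in IP. Sums of other lists, such as that of cortex and hippocampus, did not overlap between the fractions either. Higher levels in IP were thus found for part of the thalamic markers and not for all.

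Markers of neighbouring regions and other cells differed in direction, some lists mostly higher in IP, some mostly lower and some not called. Their part in the result was not tested. Of 5 tested markers of the thalamic reticular nucleus and prethalamus, 4 were higher, led by Pvalb (3.52 ± 0.26), the parvalbumin gene, and Six3 (1.66 ± 0.20). The 6 of that list in the table summed to 41.0 to 54.4 FPKM in input libraries and 170.0 to 309 FPKM in IP libraries. Of 7 measured habenular markers, 0 passed in either direction. Of 9 pan-neuronal genes, 8 were higher, and their sum was 6659.9 to 7763 FPKM in input libraries and 11400.1 to 19043 FPKM in IP libraries. Of 10 genes of mature oligodendrocytes, 8 were lower and 1 was higher, and of 8 astrocyte genes 7 were lower. Of 6 genes of newly formed oligodendrocytes, a cell type that also uses Tcf7l2, 3 were higher, and the list summed to 35.3 to 45.5 FPKM in input libraries and 61.4 to 92.4 FPKM in IP libraries. Brain endothelium, which also uses Lef1, was barely measured: 5 of its 12 markers were in the table, with sums of 3.10 to 8.83 FPKM in input and 0.0580 to 7.70 in IP, and neither of the tested ones passed.

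The hypothalamic label of the tissue was set beside a marker list likewise. Of 20 hypothalamic markers, 13 were in the table and 11 were tested, of which 5 were higher in IP and 6 did not pass. The calls of Trh and Crh among the 5 were each lost in 12 of 14 fits that left out a library. Pmch, the gene of melanin-concentrating hormone, had 87.6 ± 10.8 FPKM (n = 3) in input on control diet and 102 ± 18.6 (n = 4) on high-fat diet, and Nkx2-1, a transcription factor gene of the developing hypothalamus, had 1.58 ± 0.246 and 1.33 ± 0.657. The summed FPKM of the 13 was 87.8 to 147 in input, below the input level of Tcf7l2 in all 7 libraries, and 191 to 405 in IP, without overlap. Pmch alone had a mean of 231 FPKM in IP on control diet and 216 on high-fat diet, so these sums rest largely on that gene. In the IP libraries of index 0, 7 of the 13 stood at 0 on control diet and 4 on high-fat diet. Pmch rose in IP by 1.15 ± 0.23 (0.15 with quantile normalization, adjusted p = 0.60 by limma), Pomc by 1.71 ± 0.40 (adjusted p = 0.065 by limma with a pseudocount of 0.1) and Hcrt by 1.44 ± 0.34. In IP Pomc had 3.61 ± 3.14 FPKM on control diet (SD, n = 3, lowest value 0) and 14.6 ± 6.25 on high-fat diet (SD, n = 4). The diets did not overlap there, as for 6.34% of all genes, and the difference did not pass (adjusted p = 0.81 by limma).

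Comparing the diets within IP asks whether 3 days of high-fat feeding changed the RNA of the 4 genes on phosphorylated ribosomes, and the choice of the genes did not use this contrast. None of the 4 passed, and 0 of 12478 genes did (0.00%, limma within IP), while 713 genes (5.71%) had an unadjusted p under 0.05. The diets overlapped for all 4 genes in IP, whereas 6.34% of all genes showed no overlap there. The log2 difference, high-fat minus control, was −0.74 ± 0.34 for Lef1 (95% interval −1.48 to 0.01, adjusted p = 0.81 by limma). It was 0.35 ± 0.28 for Tcf7l2 (−0.25 to 0.96), 0.18 ± 0.25 for Ntng1 (−0.38 to 0.74) and 0.11 ± 0.37 for Ramp3 (−0.69 to 0.91). In 3 of the 4 high-fat IP libraries Lef1 was below all control-diet ones, and in 3 of the 4 Tcf7l2 was above all control-diet ones. Exact two-sided permutation over the 35 splits of 7 libraries gave p = 0.143 for Lef1, 0.257 for Tcf7l2, 0.371 for Ntng1 and 0.743 for Ramp3, where the smallest possible is 0.0286. The intervals leave room for changes of more than 1 on the log2 scale for Lef1, so a diet effect on these genes in IP was not detectable with these pools and is not shown to be absent.

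In input, the intervals were narrower. The log2 difference was −0.02 ± 0.08 for Tcf7l2 (95% interval −0.21 to 0.16), 0.01 ± 0.14 for Lef1 (−0.32 to 0.33) and 0.05 ± 0.08 for Ntng1 (−0.12 to 0.22). Ramp3 was the exception, at 0.39 ± 0.14 (0.06 to 0.71), with a mean on high-fat diet 1.38 times that on control diet. All 4 high-fat input libraries lay above all 3 control-diet ones for Ramp3, a separation that 3.05% of the 12478 genes showed in this direction and 6.80% in either. The exact two-sided permutation p was 0.0286, the smallest the design allows and 1 of 12 such tests, and the p adjusted over all genes was 0.84 (limma), so Ramp3 did not pass. Of all genes, 0 passed in input (0.00%), and 714 (5.72%) had an unadjusted p under 0.05.

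The test of whether the diet effect differs between the fractions was passed by none of the 4 genes. The difference of the diet effects, IP minus input, was −0.74 ± 0.39 for Lef1 (95% interval −1.58 to 0.10, adjusted p = 0.75 by limma), 0.38 ± 0.27 for Tcf7l2 (−0.20 to 0.95), −0.28 ± 0.41 for Ramp3 (−1.15 to 0.58) and 0.13 ± 0.24 for Ntng1 (−0.38 to 0.63). Of 12478 genes, 1 passed this test (0.00801%), the antisense gene Gm17122, named after its values were seen, and 844 (6.76%) had an unadjusted p under 0.05.

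**Figure D4:**
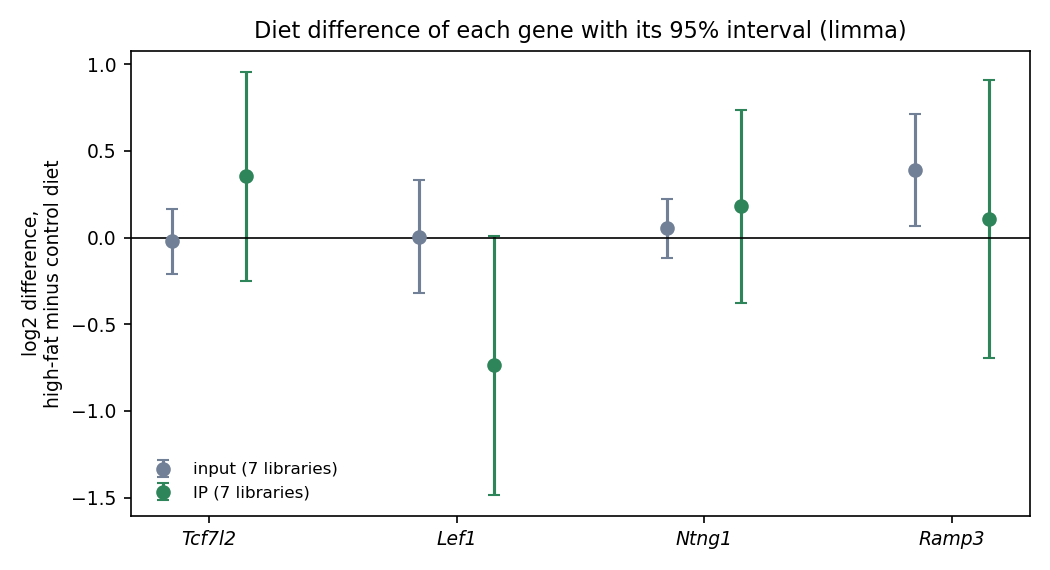
Log2 difference, high-fat minus control diet, of each gene in input (grey, 7 libraries) and IP (green, 7 libraries), with its 95% interval from limma. The IP interval of Lef1 reaches from −1.48 to 0.01, and the input interval of Ramp3, from 0.06 to 0.71, is the only one that does not include 0.

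Among the IP libraries, Tcf7l2 and Ntng1 varied together. Pearson's r of log2(FPKM + 1) over the 7 IP libraries was 0.925 (exact permutation p = 0.00417) and Spearman's rho 0.893 (exact permutation p = 0.0123). Adjusted over the 12 gene pairs and fractions computed, these p-values were 0.05 and 0.148, so neither was under the threshold. Leaving out each library in turn gave 0.877 to 0.957, leaving out the 2 libraries farthest from the median of Tcf7l2 gave 0.772, and leaving out both libraries of index 0 gave 0.930. On high-fat diet the 4 IP libraries had the same order for both genes, and on control diet the 3 did not. In input r for the pair was 0.217. Both genes share library, scaling and amplification in each point.

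No such relation was seen for Lef1 or Ramp3. In IP, r was −0.118 for Tcf7l2 with Lef1, −0.137 for Tcf7l2 with Ramp3, −0.058 for Lef1 with Ntng1, 0.185 for Lef1 with Ramp3 and 0.088 for Ntng1 with Ramp3. The sign of the weak ones was not stable: with the 2 libraries farthest from the median left out, Tcf7l2 with Lef1 gave 0.281, and with the mean of each group subtracted over all 14 libraries it gave 0.326 and Lef1 with Ntng1 0.279. The IP library with the most Lef1, index 2 on control diet, had the second-lowest Ramp3 value of the 7. The library with the most Ramp3, index 3 on high-fat diet, had the second-highest values of Tcf7l2, Lef1 and Ntng1.

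**Figure D5:**
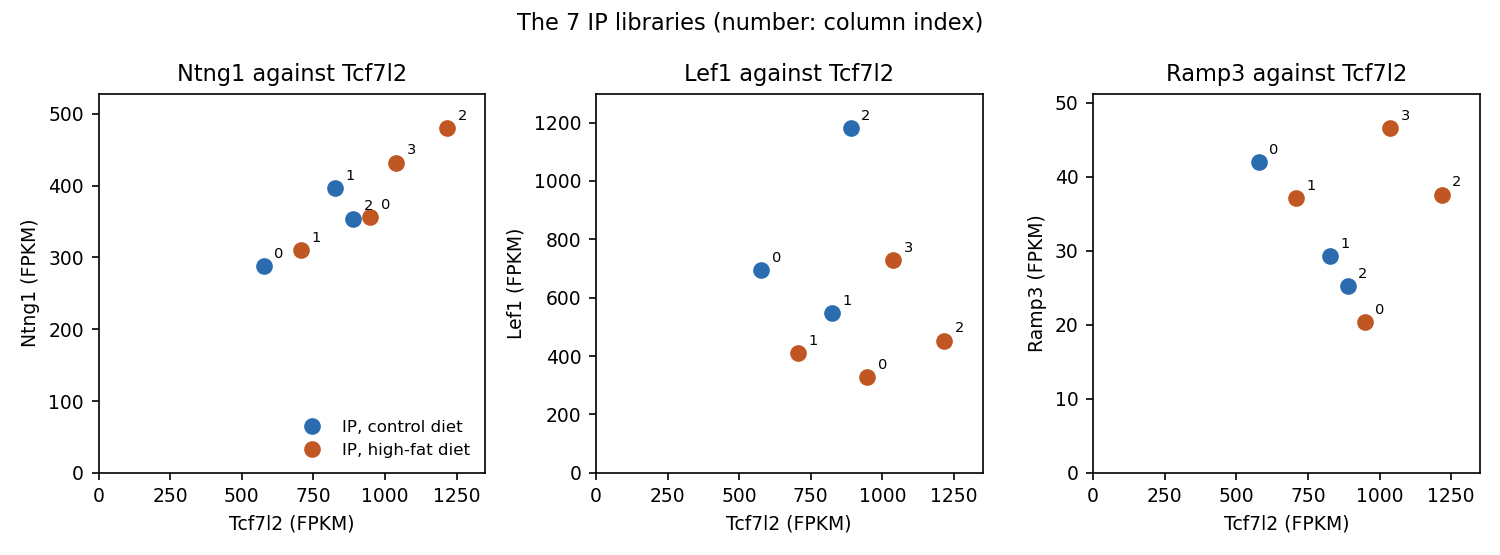
FPKM of Ntng1, Lef1 and Ramp3 against FPKM of Tcf7l2 in the 7 IP libraries (blue control diet, orange high-fat diet, numbers are column indices, linear axes from 0). Ntng1 rises with Tcf7l2 (r = 0.925 on the log2 scale), whereas Lef1 (−0.118, and 0.281 without the 2 libraries farthest from the median) and Ramp3 (−0.137) scatter.

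The 16 further thalamic markers also differed in which of the 4 genes they followed over the 7 IP libraries, described without a test. Of these, Slc17a6 was the most like Tcf7l2 (r = 0.861) and Ntng1 (0.828), Tnnt1 the most like Lef1 (0.938) and Lhx2, a transcription factor gene, the most like Ramp3 (0.838). The median r over the 16 markers was 0.287 with Tcf7l2, 0.297 with Lef1, 0.430 with Ntng1 and 0.144 with Ramp3, and over all genes it was 0.02, 0.01, 0.00 and −0.01. In the same order, r was positive for 11, 11, 12 and 9 of the 16, against 51.2%, 50.6%, 50.4% and 49.1% of all genes. The lowest r among the 16 was −0.541, −0.542, −0.418 and −0.581. Lhx2 itself had r = −0.541 with Tcf7l2 and −0.418 with Ntng1. In IP, Tnnt1 had 82.7 to 156 FPKM on control diet and 44.9 to 81.6 FPKM on high-fat diet, a difference that did not pass (adjusted p = 0.81 by limma).

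Over the 14 libraries, after the mean of each fraction was subtracted, the gene most like Tcf7l2 was Bmp5 (r = 0.948), followed by Pcp4l1 (0.942), a relative of the neuronal gene Pcp4, with a mean of 81.5 FPKM in input and 833 in IP. Sema3c, a guidance cue gene, was the most like Lef1 (0.922), the synaptic adhesion gene Lrrtm1 the most like Ntng1 (0.909) and Dcaf12l1 the most like Ramp3 (0.899). Lrrtm2, another synaptic adhesion gene, was among the 5 most alike of both Tcf7l2 (0.931, and 0.434 within input) and Ntng1 (0.900, and 0.213 within input). Igsf5, also among those of Ntng1, shares exons with a second gene model of the same name, so its level is uncertain. Of the 20 places in these lists, 1 was kept when both IP libraries of index 0 were left out, so which genes are named rests on those libraries.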

How the data were processed

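RNA of 14 hypothalamic libraries was analysed (3 and 4 input, 3 and 4 IP). The authors deposited FPKM, called normalized in the file headers, with no statement of how libraries were scaled to each other. Per the file headers they also deposited a ratio of IP to input for 7 pairs of columns, a p-value and a log2 fold change (a score here) of the ratios between diets. Each of 96385 ratios equalled IP FPKM divided by input FPKM of the same diet and index (relative tolerance 0.001). The submitters' processing notes name Cuffdiff, Cufflinks 2.2.1, StringTie 1.3.4d and HISAT2 2.1.0 and the build GRCm38.p6, without roles. Per the labels' protocols, RNA was amplified with poly(T) and random primers before a library kit that does not mark strand, which can distort levels. No column was left out (0).

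Genes were kept at a mean FPKM of 1 or more (12478), a symbol with several entries being represented by the highest. Values were transformed to log2(FPKM + 1), which understates changes of genes near 1 FPKM, and modelled in R 4.3.3 by limma 3.58.1 (trended empirical Bayes, two-sided, Benjamini-Hochberg over all genes, threshold 0.05). Each diet comparison was fitted within its fraction; IP against input and the difference of diet effects used all 14 libraries as independent, although fractions share lysates. Columns were assigned to groups, not to labelled replicates. Permutations used NumPy 2.4.6, correlations NumPy and R, and the ranks for Spearman's rho came from SciPy 1.17.1. The fits were tested on simulated data.

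The 4 genes and all lists were chosen with earlier results of these data known. Named are the 4 genes, the 5 genes with a usual symbol most like each in log2 level within fractions, all measured members of the TCF/LEF, netrin-G and RAMP lists, and up to 4 genes of smallest p of each other list. Rora, Plekhg1, Slc17a6, Lhx2, Zic1, Crh, Ctnnb1, Axin2, Nkx2-1, Gm17122 and Gm43352 fall outside that rule and were named after their values were seen. Alternatives were the pseudocount (0.1), the filter (none, or at least 5), quantile and median-ratio scaling, array weights, the fit's libraries, the replicate block, and leaving out each library or both IP libraries of index 0. Correlation alternatives were added after seeing the data. Positions, transcript lengths and overlaps came from GENCODE M21, and promoters from RefSeq.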

Additional observations from a re-analysis of the deposited data

Results flagged for a closer look

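Of the 8 groups of 4 libraries examined for the 4 genes, 1 held a library far from the others: the high-fat input library of index 1, where Tcf7l2 stood at 149.9 FPKM while the other 3 libraries of that group stood at 177 to 181. Chance flags about 1 in 20 such groups. Without that library the diet difference of Tcf7l2 in input was 0.041 instead of −0.02 on the log2 scale.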

How the results depend on the processing

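The call of each of the 4 genes, none past the threshold in any diet comparison, held under every alternative run, with adjusted p from limma of 0.187 or more. Over these alternatives the diet difference in IP was −0.98 to −0.38 for Lef1, 0.16 to 0.50 for Tcf7l2, 0.05 to 0.29 for Ntng1 and −0.05 to 0.55 for Ramp3, and in input it was 0.25 to 0.47 for Ramp3. Genes called for diet in IP were 0 as reported, 1 with array weights and 75 with all 14 libraries in the fit. In input they were 0 to 1 when single libraries were left out. For the difference of diet effects they were 1 as reported, 0 with array weights, 0 from the authors' deposited p-value adjusted here, 12 without both IP libraries of index 0, and 1 to 128 when single libraries were left out (128 without control-diet IP index 1, 7 without control-diet IP index 0). Of the 20 most alike genes, 7 remained with the group mean subtracted, 1 without both IP libraries of index 0, and 4 to 19 when single libraries were left out. Whether index numbers pair samples was not established: deviations of IP and input of one index correlated at −0.004 to 0.058, above every other index of that diet in 6 of 7 pairs, and those of one index on both diets at −0.025 to 0.035 in IP and 0.051 to 0.124 in input. With the index as replicate block, 0, 0, 1 and 5170 genes were called for diet in IP, diet in input, their difference and IP against input over both diets (5478 without it), and Ramp3 in IP (−0.040) and Lef1 in input (−0.058) changed sign. Leaving out single libraries turned Ramp3 in IP (−0.045 to 0.35) and, in input, Lef1 (−0.084 to 0.10), Tcf7l2 (−0.048 to 0.041) and Ntng1 (−0.0041 to 0.11). The difference of diet effects turned for Ntng1 with array weights (−0.0087) and for Ramp3 without both IP libraries of index 0 (0.16). In IP against input, quantile normalization turned Calcrl (0.057), Calcr (0.13), Calca (0.23) and Gsk3b (−0.51), array weights turned Calca (0.14) and Ctnnb1 (0.048), and leaving out both index 0 libraries turned Calca (0.59) and Tle2 (0.13). Leaving out single libraries turned Calcr (−0.67 to 0.17), Calca (−0.45 to 0.28), Tle3 (−0.25 to 0.17) and Ctnnb1 (−0.23 to 0.26). The cause of these changes was not tested. Read depth is unknown, which limits what can be said of low genes such as Ramp3 in input.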

Other observations

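Markers of more distant regions were mixed in IP against input. Of 5 tested striatal markers, 2 were higher, 1 was lower and 2 did not pass, with the dopamine receptor gene Drd2 at 1.27 ± 0.23 and Rgs9, a regulator of G-protein signalling, at −2.26 ± 0.33. Of 3 tested markers of cortex and hippocampus, Lmo3 (0.92 ± 0.30) was higher and 2 did not pass. The 7 of that list in the table summed to 53.6 to 65.2 FPKM in input and 71.0 to 158 FPKM in IP, without overlap. The antisense gene Gm43352, which overlaps exons of Lef1, was listed at 0.363 to 0.843 FPKM in input and 0.166 to 5.59 in IP, and its lowest IP value fell in the library with the highest Lef1.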
